A study of Homo sapiens with 18 samples.

Results

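The 48 genes described here encode subunits, activators and assembly factors of the proteasome. They were chosen as the rows of the deposited table whose symbol is PSMA, PSMB, PSMC, PSMD, PSME, PSMF or PSMG followed by digits only, which took 48 of 56269 rows. By role they were 7 members of the alpha ring, 7 of the beta ring, 6 ATPases, 11 non-ATPase subunits of the regulatory particle, 7 assembly chaperones, 3 genes for other activators and an inhibitor, 5 interferon-inducible members (PSMB8, PSMB9, PSMB10, PSME1 and PSME2) and 2 tissue-restricted ones (PSMA8 and PSMB11). A further 37 rows with a PSM name, of which 31 are pseudogenes and 5 antisense genes, were left out by the rule, and the pseudogene with the highest level had a mean normalized count of 15.7.

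RNA was sequenced from IMR90 cells, a line of primary human lung fibroblasts, so that every library came from 1 line. Cells were held for 6 h with PBS, with 20 μg/ml cNSF-HA or with 20 μg/ml fNSF-HA, in medium with 15% FBS. HA is hyaluronan, and NSF are naked mole-rat skin fibroblasts, which secrete it in very long chains. The control preparation, cNSF-HA, had been incubated with heat-inactivated hyaluronidase and kept its length, while fNSF-HA had been partly fragmented with the active enzyme. Cells without the oxidant were collected after this pre-incubation. The others were then exposed to 200 μM tBHP (tert-butyl hydroperoxide) for 1 h without HA and collected 5 h after its removal. Cells with tBHP were therefore also collected later than those without it, and the effect of the oxidant and that of the later collection cannot be told apart. Each of the 6 groups had 3 libraries, which the study's methods describe as biological replicates. The comparisons asked how these genes respond to the oxidant in each pre-incubation, and whether cNSF-HA, fNSF-HA and PBS differ before and after it.

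The proteasome is the protease that degrades proteins marked with ubiquitin. Its core particle is a barrel of outer alpha rings, which gate the entrance, and inner beta rings, which hold the catalytic sites. A regulatory particle made of ATPases and non-ATPase subunits binds ubiquitin chains, unfolds the substrate and feeds it into the barrel. Interferons exchange the constitutive catalytic subunits PSMB5, PSMB6 and PSMB7 for PSMB8, PSMB9 and PSMB10 in turn, which gives the immunoproteasome that makes peptides for antigen presentation. When proteasome activity falls short, mammalian cells are known to raise the subunit genes together through the transcription factor NFE2L1.

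Fibroblast identity was checked with 9 marker genes, all of which passed the filter on low values and together reached between 1017000 and 1362000 normalized counts per library. None of 5 leukocyte markers passed it (sum 1.97 to 13.6 normalized counts per library), nor did 3 of 4 endothelial ones, while 2 of 5 epithelial markers did (KRT8 and KRT18). Of the 9 fibroblast markers, 1 rose and 3 fell after tBHP in PBS cells. The fibroblast sum was 1142200 to 1167500 without and 1017000 to 1362000 with it, and the epithelial sum 1904 to 2152 and 1158 to 2041. The endothelial sum was 6.52 to 14.8 and 13.1 to 25.1, and in PBS cells it was 6.53 to 9.66 without and 13.1 to 25.0 with tBHP. VWF, the endothelial marker that passed the filter, ran from 3.73 to 25.0 over all libraries. The highest values of PECAM1, CDH5 and KDR were 1.14, 0 and 2.80. In PBS cells LUM and KRT18 fell to 0.399 and 0.705 of their level and PDGFRB rose 1.52-fold, and the part of such shifts in the members' response was not tested. The reads counted on genes, recovered from the deposited values, numbered between 20261103 and 26287660 per library. Replicates spread more after tBHP: the median SD of the members on the log2 scale was 0.038 to 0.047 in the groups without it and 0.116 to 0.154 in the groups with it. The third library of cNSF-HA with tBHP stood apart for these genes, with 39 of the 45 tested members above the mean of its group. Members took 0.745% of its reads, against 0.643% and 0.656% in the first and the second library of that group, 0.568% to 0.587% without tBHP, 0.611% to 0.652% in PBS cells with tBHP and 0.641% to 0.662% in fNSF-HA cells with tBHP. In fNSF-HA cells with tBHP, the second and the third libraries differed most of all replicate pairs, with a chi-square per degree of freedom of 70.4 between their counts, against 1.47 to 2.69 for pairs without tBHP.

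In unstressed cells the levels of the beta ring genes spanned a narrower range than those of the alpha ring. Levels between genes are given as normalized counts per kb of the principal transcript, as the mean of the 9 libraries without tBHP. The 7 beta ring genes lay between 1516 per kb (PSMB2) and 4136 per kb (PSMB4). PSMB5, which carries the chymotrypsin-like site, was at 3203 per kb, PSMB6, the caspase-like subunit, at 3138 per kb and PSMB7, the trypsin-like subunit, at 3719.7 per kb. In the alpha ring, where each subunit is also present in equal number in the protein complex, levels ran from 61.6 per kb (PSMA2) to 4241 per kb (PSMA7). These values depend on the transcript taken, which had 4411 bases for PSMA4 and 3729 for PSMA5, against 970 for PSMA3 and 996 for PSMA7. PSMA1, PSMA2 and PSMA6 were the lowest 3 of the ring, at 341, 61.6 and 157 per kb.

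These 3 genes are also the ones of the ring whose exons are shared with another annotated gene on the same strand. In GENCODE release 29, 53.2% of the bases of the PSMA1 principal transcript, 54.1% of those of PSMA2 and 81.0% of those of PSMA6 lie in exons of a second gene model, while the share was 0 for PSMA3, PSMA4, PSMA5 and PSMA7. Over all members and on either strand, 11 shared more than 10% of their bases and 33 shared none. PSMB10 (45.3%, 34.5 per kb) and PSMD9 (43.8%, 74.0 per kb), which share exons with a protein-coding model on the same strand too, were also low. The annotation that the authors counted on is not given in the sources used here, and the part of shared exons in these low levels was not tested. PSMC1 shared 82.1% of its bases with NRDE2 on the opposite strand, and since the library kit does not keep the strand, reads of the pair cannot be told apart. PSMD7, at 1589 per kb, shared 50.4% of its bases with a processed transcript, also on the opposite strand.

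**Figure D1:**
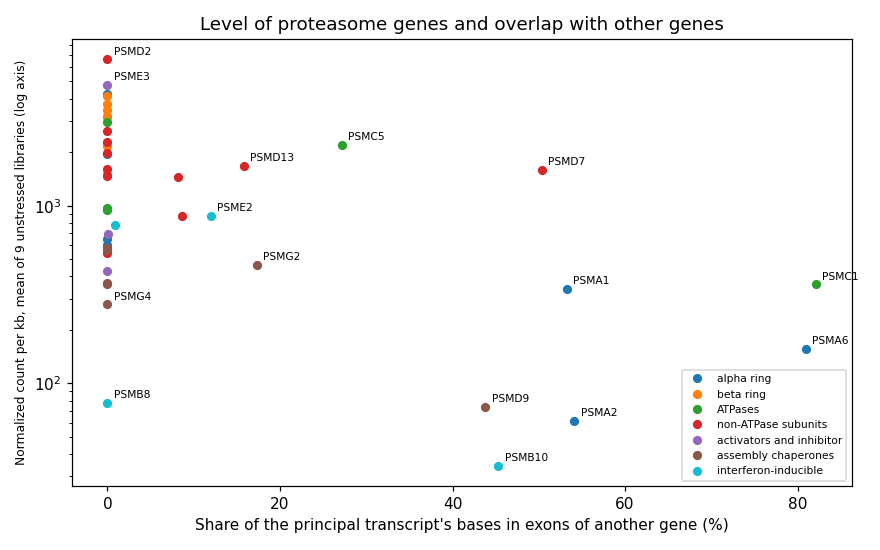
Level of the 45 tested members without tBHP (normalized counts per kb of the principal transcript, mean of 9 libraries, log axis) against the share of that transcript's bases that lie in exons of another gene in GENCODE release 29 (%). Points are genes, coloured by role. PSMA1, PSMA2 and PSMA6 lie right of 50% and at or below 341 per kb, and PSMD2 is the highest at 6671 per kb.

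PSMD2, a large subunit of the regulatory particle at which ubiquitin receptors dock, was the most abundant member at 6671 per kb, above PSME3 at 4773 per kb. PSME3 encodes a nuclear activator, and its value depends on the transcript taken, since it was 924 per kb of all its exons joined. Assembly chaperones, which act during construction and then leave, lay between 74.0 per kb (PSMD9) and 575 per kb (PSMD10). The catalytic interferon-inducible subunits were far below their constitutive counterparts: PSMB8 was at 77.9 per kb, PSMB10 at 34.5 and PSMB9 at 9.08. PSMA8, a testis subunit, had 0 reads in all 18 libraries, which allows up to 3 reads in a library of at least 20261103, counting error only. PSMB11, the thymus subunit, was between 0 and 8.12 normalized counts. Both of these and PSMB9 fell below the mean of 10 normalized counts that a gene needed to be tested, so that 45 of the 48 members were tested among 13686 genes.

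After tBHP in PBS cells, most subunits of the beta ring and of the regulatory particle rose, while several of the factors that assemble the proteasome fell. Of the 45 members tested, 22 rose and 9 fell (limma on log2 of the normalized count + 1, adjusted p below 0.05 over all genes tested). Among all genes, 24.2% rose and 26.9% fell, against 48.9% and 20.0% of the members. The median log2 difference was 0.14 for the members and 0.004 for all genes. In bulk RNA, fewer cells and less RNA per cell cannot be told apart from a change of a gene's own level.

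Subunits of the beta ring and of the regulatory particle carried the rise. In the beta ring 5 of 7 genes rose and none fell, among the ATPases 5 of 6 rose and none fell, and among the non-ATPase subunits 7 of 11 rose and 1 fell. The median log2 difference was 0.39 in the beta ring, 0.43 in the ATPases and 0.31 in the non-ATPase subunits. PSMB4, a structural subunit of the beta ring, had the largest rise there. Its normalized counts were 4105, 3935 and 3775 in PBS cells and 5628, 5526 and 5664 after tBHP. Each library with tBHP lay above each one without it, a 1.42-fold rise (log2 difference 0.51 ± 0.081 (SE), adjusted p = 4.61e-05). PSMB7 rose by nearly as much, 1.41-fold, from 3769, 3629 and 3611 to 5242, 5020.1 and 5276 (log2 difference 0.50 ± 0.078 (SE), adjusted p = 4.08e-05). The other catalytic genes moved less. PSMB6 went from 2710.4, 2657 and 2548 to 3544, 2864 and 3229 (log2 difference 0.28 ± 0.11 (SE), adjusted p = 0.0395), a call that was lost when any PBS library, or the first or the third PBS library with tBHP, was left out (adjusted p 0.0623 to 0.17), and with the GC and length trend removed. PSMB5 was at 4132, 4149.5 and 4011 without and 4957, 4472 and 4078 with tBHP, and the groups overlapped (log2 difference 0.13 ± 0.087 (SE), adjusted p = 0.219). Its log2 difference turned negative with the GC and length trend removed.

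PSMC4, an ATPase of the ring that unfolds substrates, showed one of the clearest rises. It was at 1558, 1503 and 1495 normalized counts in PBS cells and at 2421, 2226 and 2247 after tBHP, a 1.51-fold rise with no overlap (log2 difference 0.60 ± 0.073 (SE), adjusted p = 2.94e-06). PSMC6 was the exception among the ATPases, with a log2 difference of -0.06 ± 0.085 (SE). PSMD3, a scaffold subunit of the lid, rose most among the non-ATPase genes. Its counts went from 4358, 4214 and 4224 to 7244, 5942 and 6647, 1.54-fold and without overlap (log2 difference 0.63 ± 0.087 (SE), adjusted p = 1.09e-05). PSMD12, which also belongs to the lid, fell instead, from 2396, 2429 and 2509 to 1753, 2223 and 2077 (log2 difference -0.28 ± 0.092 (SE), adjusted p = 0.0155). That fall was lost without the third PBS library or the first PBS library with tBHP (adjusted p 0.0535 and 0.105), and it turned to a rise of 0.16 (limma, adjusted p = 0.0112) when the trend with GC content and length was removed from each library.

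**Figure D2:**
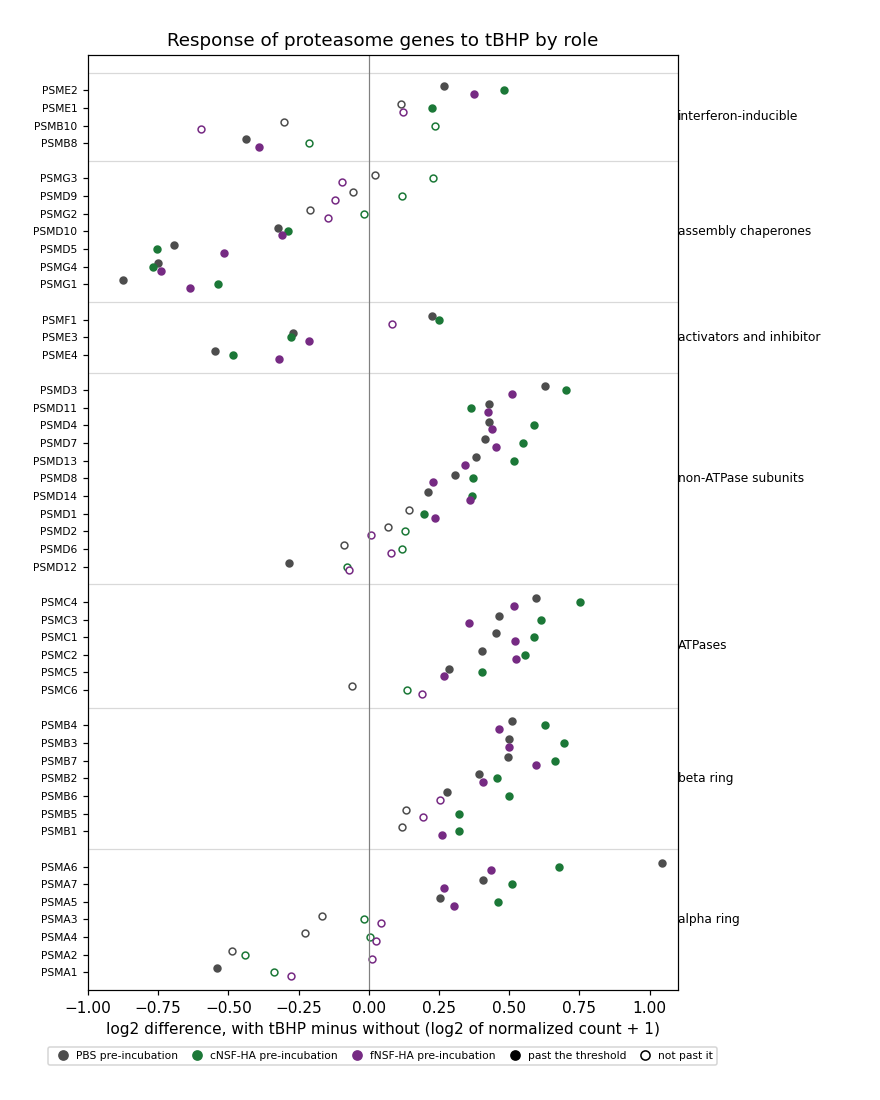
log2 difference between cells with and without tBHP (log2 of the normalized count + 1) of the 45 tested members, grouped by role. Each gene has a point for PBS, cNSF-HA and fNSF-HA pre-incubation, filled where the adjusted p was below 0.05. Beta ring genes, ATPases other than PSMC6 and most non-ATPase genes lie right of 0, while PSMG1, PSMG4, PSMD5, PSMD10, PSME3 and PSME4 lie left of it in all 3 pre-incubations.

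Of the 7 assembly chaperones, 4 fell and none rose. PSMG1, which pairs with PSMG2 to start alpha ring assembly, had the largest fall of all members. It was at 839, 805 and 769.6 normalized counts in PBS cells and at 404, 458 and 453 after tBHP, 0.545 of the starting level (log2 difference -0.88 ± 0.084 (SE), adjusted p = 1.66e-07). No library with tBHP reached the lowest one without it. PSMG4, the partner of PSMG3 in the next step, and PSMD5 and PSMD10, chaperones of the ATPase base, also fell. Of these, PSMG4 and PSMD10 were outside the rule for named genes and are named after their values were seen. PSMG4 went from 253, 226 and 232 to 149.8, 152 and 120.4 (log2 difference -0.75 ± 0.16 (SE), adjusted p = 9.73e-04) and PSMD5 from 1907, 1913 and 1917 to 1093, 1337 and 1128 (log2 difference -0.69 ± 0.10 (SE), adjusted p = 1.00e-05), each without overlap. PSMD10 fell less (log2 difference -0.32 ± 0.11 (SE), adjusted p = 0.0159), and its call was lost without the second PBS library or the first PBS library with tBHP (highest adjusted p 0.114) and with the GC and length trend removed. The other 3 chaperones were not called: the log2 difference was -0.21 ± 0.086 (SE) for PSMG2, whose groups did not overlap (adjusted p = 0.0508), 0.02 ± 0.14 for PSMG3 and -0.06 ± 0.14 for PSMD9. With the GC and length trend removed, PSMG2 and PSMG3 fell in all 3 responses.

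The alternative activators fell too. PSME4, a large activator of the core particle that works without ATP, went from 4948, 4869.9 and 4853 to 3052, 3648 and 3359 normalized counts, 0.684 of its level (log2 difference -0.55 ± 0.093 (SE), adjusted p = 9.83e-05). PSME3 fell to 0.83 of its level (log2 difference -0.27 ± 0.058 (SE), adjusted p = 8.79e-04). PSMF1, which was described as an inhibitor of the core particle, rose from 1897, 1812 and 1786 to 2332, 1987 and 2116 (log2 difference 0.23 ± 0.080 (SE), adjusted p = 0.0262). The call of PSMF1 was lost without the second or the third PBS library or the first PBS library with tBHP (highest adjusted p 0.129), and with the GC and length trend removed.

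The alpha ring split: 3 of its 7 genes rose and 1 fell, with a median log2 difference of -0.17. PSMA5 rose by 0.25 and PSMA7 by 0.41 on the log2 scale, and the call of PSMA5 was lost without the third PBS library or the second or the third PBS library with tBHP (highest adjusted p 0.0617). The extremes of the ring, PSMA6 and PSMA1, were both among the genes with shared exons. PSMA6 was at 143, 139 and 166 in PBS cells and at 372, 232 and 338 after tBHP (2.06-fold, log2 difference 1.04 ± 0.14 (SE), adjusted p = 1.01e-05), with the second library with tBHP under both others. PSMA1 went from 584, 508 and 499 to 292, 456 and 361 (log2 difference -0.54 ± 0.17 (SE), adjusted p = 0.0136), a call lost without the first library of either group (highest adjusted p 0.0902). Among the 34 tested members with at most 10% shared bases, 16 rose and 8 fell.

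**Figure D3:**
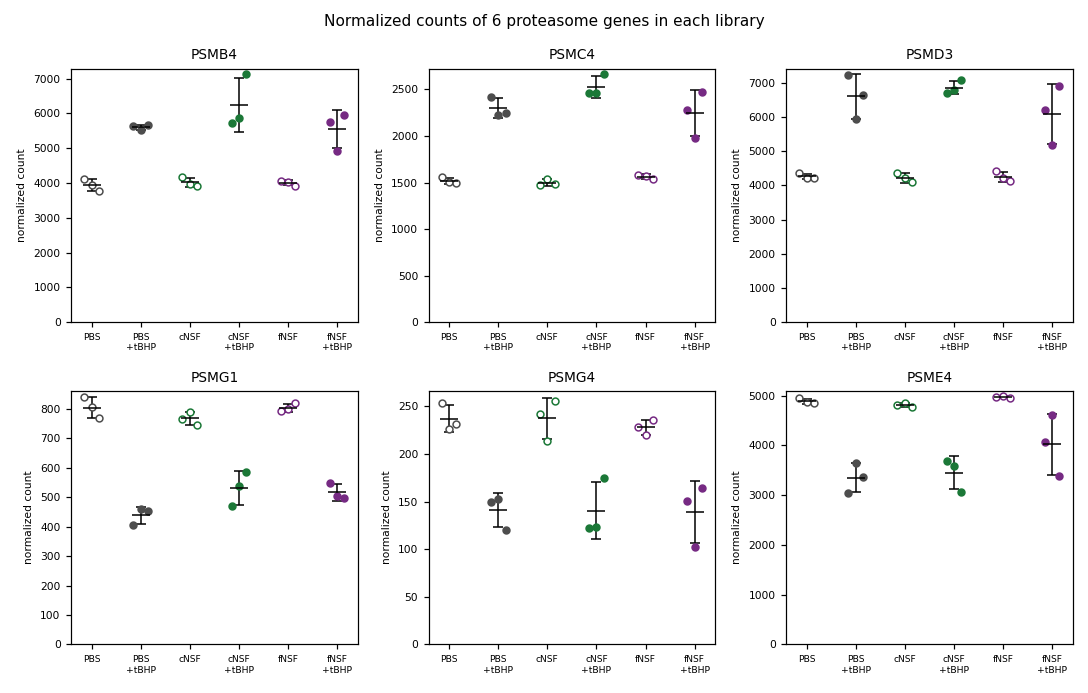
Normalized counts of PSMB4, PSMC4, PSMD3, PSMG1, PSMG4 and PSME4 in each of the 18 libraries, open points without and filled points with tBHP, with the mean and SD of 3 libraries per group. PSMB4, PSMC4 and PSMD3 are higher and PSMG1, PSMG4 and PSME4 lower after tBHP in all 3 pre-incubations.

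In cNSF-HA cells 26 members rose and 6 fell after tBHP, where 24% of all genes rose and 26.8% fell. In fNSF-HA cells 22 members rose and 7 fell, where 19.2% of all genes rose and 22.7% fell. The median log2 difference of the members was 0.32 with cNSF-HA and 0.23 with fNSF-HA, and that of all genes was -0.001 and -0.034. Leaving out 1 library gave members' medians of 0.22 to 0.35 with cNSF-HA and 0.16 to 0.28 with fNSF-HA. The 0.22 came without the third cNSF-HA library with tBHP. By role, 7 and 5 of the 7 beta ring genes rose with cNSF-HA and fNSF-HA, 5 and 5 of the 6 ATPases and 8 and 8 of the 11 non-ATPase subunits, and none of these fell. Of the 7 assembly chaperones 4 and 4 fell and none rose. Without the third cNSF-HA library with tBHP, which stood apart, 25 members rose and 8 fell. The shares of all genes in that fit are not given here, so this count is not read against them. The 3 responses share no libraries, though 1 estimate of the spread serves them all.

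Altogether 20 members rose in each of the 3 responses and 6 fell in each. Among all genes tested, 14.6% rose in each and 17.9% fell in each, against 44.4% and 13.3% of the members. No member was called in opposite directions. The 20 were PSMA5, PSMA6 and PSMA7 of the alpha ring, PSMB2, PSMB3, PSMB4 and PSMB7 of the beta ring, PSMC1 to PSMC5 of the ATPases, PSMD3, PSMD4, PSMD7, PSMD8, PSMD11, PSMD13 and PSMD14, and PSME2. The 6 were PSMD5, PSMD10, PSMG1, PSMG4, PSME3 and PSME4. In every response and with each library left out in turn, 14 of the 20 and 4 of the 6 were called. This was counted for the members only, so it cannot be set against a share of all genes. The 14 did not include an alpha ring gene, and the 4 were PSMD5, PSMG1, PSMG4 and PSME3. PSME4 lost its fall in fNSF-HA cells without the third library with tBHP (adjusted p 0.0598). PSMG1 was at 469, 539 and 584 after tBHP with cNSF-HA, against 767, 789.8 and 745 before it. With fNSF-HA it was at 549.8, 504 and 498, against 794, 799 and 819.9. All 6 stressed libraries were again below the unstressed ones.

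Genes that rose after tBHP had a higher GC content than genes that fell, in these members as in all genes. The median GC content of all genes was 53.3% for those that rose in PBS cells and 41.5% for those that fell, and for the members it was 48.8% and 46.2%. With the trend of each library with GC content and length removed, 18 of the 22 members that rose in PBS cells and 7 of the 9 that fell kept their call. In that fit all 6 ATPases rose in each response, 5, 6 and 6 of the 7 assembly chaperones fell with PBS, cNSF-HA and fNSF-HA, and none of these chaperones rose. The shares of all genes called in that fit are not given here, so these counts are not read against them. It also called PSMA1 lower in all 3 responses, and PSMD2, which was called in no response otherwise, lower with PBS and fNSF-HA.

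The interferon-inducible members did not move as a group. PSME2, which forms the interferon-inducible activator with PSME1, rose in PBS cells from 1326, 1248 and 1167 to 1386, 1534 and 1588 normalized counts (log2 difference 0.27 ± 0.090 (SE), adjusted p = 0.0186). All libraries with tBHP were above those without it, but the call was lost without the third PBS library or the second or the third PBS library with tBHP (highest adjusted p 0.0873), and with the GC and length trend removed. PSME2 also rose with cNSF-HA (log2 difference 0.48 ± 0.090 (SE), adjusted p = 2.50e-04) and with fNSF-HA (log2 difference 0.37 ± 0.090 (SE), adjusted p = 0.00265). Its partner PSME1 was at 812, 729 and 757 without and 834, 818 and 834 with tBHP in PBS cells (log2 difference 0.11 ± 0.090 (SE), adjusted p = 0.302). It rose in cNSF-HA cells (log2 difference 0.23 ± 0.090 (SE), adjusted p = 0.0443), where the call was lost without any one of 5 of the 6 libraries, all but the first library with tBHP (highest adjusted p 0.253). PSME1 was at -0.075 there, and not called, with the GC and length trend removed.

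The catalytic interferon-inducible subunits were low throughout. PSMB8 was at 89.8, 87.7 and 78.7 normalized counts in PBS cells and 55.6, 75.1 and 59.1 after tBHP (log2 difference -0.44 ± 0.15 (SE), adjusted p = 0.0239), so that the groups did not overlap. That fall was lost without the first or second PBS library or the first or the third PBS library with tBHP (highest adjusted p 0.0991), and under edgeR (adjusted p = 0.0575). In fNSF-HA cells PSMB8 went from 80.4, 76.9 and 93.2 to 55.2, 66.0 and 69.5 (log2 difference -0.39 ± 0.15 (SE), adjusted p = 0.049), a call lost without any 1 of 5 libraries, all but the third with tBHP (highest adjusted p 0.193), and under edgeR (0.0861) and DESeq2 (0.0649). With cNSF-HA it was at 85.9, 92.9 and 102 and 70.6, 78.1 and 94.5 (log2 difference -0.21 ± 0.15 (SE), adjusted p = 0.259). With the GC and length trend removed, PSMB8 fell in all 3 responses, by 0.64 with PBS, 0.45 with cNSF-HA and 0.54 with fNSF-HA on the log2 scale (limma, highest adjusted p = 0.0177). PSMB10 was between 18.1 and 59.2 in all libraries and was not called in any response, though with the GC and length trend removed it fell in PBS cells (-0.63, adjusted p = 0.0308) and in fNSF-HA cells (-0.75, adjusted p = 0.012). After tBHP in fNSF-HA cells it was at 25.4, 18.1 and 59.2, and without the third of these libraries the log2 difference was -1.07 (adjusted p = 0.00253). PSMB9 had 6.76, 8.4 and 8.65 normalized counts in PBS cells and 6.81, 4.35 and 5.47 after tBHP, below the filter.

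The ratio of normalized counts of each inducible catalytic subunit to its constitutive counterpart is used here for its change between libraries, not for the level of 1 gene against the other. PSMB8 over PSMB5 was 2.17%, 2.11% and 1.96% in PBS cells and 1.12%, 1.68% and 1.45% after tBHP. PSMB10 over PSMB7 was 1.26%, 1.03% and 0.982% and 0.823%, 0.629% and 0.456%, and PSMB9 over PSMB6 was 0.249%, 0.316% and 0.339% and 0.192%, 0.152% and 0.169%. None of the 3 ratios overlapped between the PBS groups. The counts of PSMB9 and PSMB10 themselves did overlap, PSMB6 and PSMB7 rose, and the ratio of PSMB9 rests on fewer than 10 normalized counts in each of these libraries. These ratios were not tested. In HA cells PSMB8 over PSMB5 was again lower in each stressed library than in the unstressed ones of the same pre-incubation, while the other ratios overlapped with cNSF-HA. With fNSF-HA, PSMB10 over PSMB7 was lower without overlap, at 0.46%, 0.354% and 1.01% after tBHP, and PSMB9 over PSMB6 overlapped. Taking medians, the 4 tested inducible members changed by -0.23 ± 0.19 (SD, n = 3 libraries with tBHP) relative to the 41 constitutive ones on the log2 scale in PBS cells, by -0.11 ± 0.10 with cNSF-HA and by -0.25 ± 0.22 with fNSF-HA. Removal of the GC and length trend gave -0.51 with PBS, -0.43 with cNSF-HA and -0.44 with fNSF-HA. Leaving out 1 library gave -0.31 to -0.12 with PBS, -0.18 to -0.056 with cNSF-HA and -0.37 to -0.15 with fNSF-HA, and the values nearest to 0 came without the third PBS library with tBHP, the second unstressed cNSF-HA library and the first fNSF-HA library with tBHP.

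**Figure D4:**
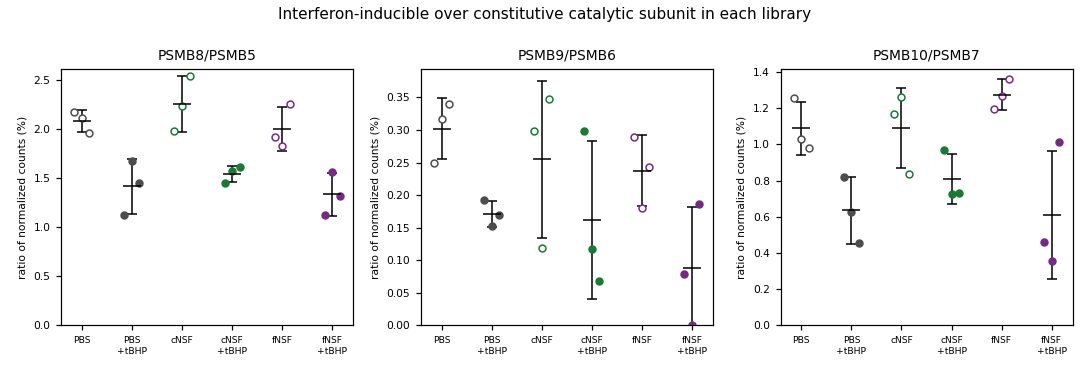
Ratio of normalized counts of each interferon-inducible catalytic subunit to its constitutive counterpart (%), in each of the 18 libraries, open points without and filled points with tBHP, with the mean and SD of 3 libraries per group. PSMB8 over PSMB5 is lower in every stressed library than in the unstressed libraries of its pre-incubation.

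RefSeq promoter windows (build GRCh38.p14, 250 bases before to 50 bases after a start site) were found for 42 of the 48 members, with no entry for PSMA7, PSMB1, PSMB6, PSMB7, PSMD4 and PSMG3. The core of the interferon-stimulated response element, which is GAAA, any 2 bases and GAAA again, was searched on both strands. It stood in 1255 of 35116 windows (3.57%), in 7 of the 51 windows of members and at 4 of the 5 inducible genes. At PSMB8, PSMB10, PSME1 and PSME2 the site was GAAAGCGAAA on one strand or the other, and PSMB9 had no match in its window. The only other members with a match were PSMA4, PSMB4 and PSMG4, and PSMG4 had the same 10 letters.

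The windows of the inducible genes are shown 5′ to 3′ on the strand of the gene, in lower case, together with PSMD3, the largest rise outside the genes with shared exons, and PSMG1, the largest fall. Capitals mark matches to that core or to TGACNNNGC, the core of the antioxidant response element bound by NFE2L1 and NFE2L2, on either strand. PSMB8 has a second window without a match.
PSMB8 (chr6:32843998-32844297, minus strand): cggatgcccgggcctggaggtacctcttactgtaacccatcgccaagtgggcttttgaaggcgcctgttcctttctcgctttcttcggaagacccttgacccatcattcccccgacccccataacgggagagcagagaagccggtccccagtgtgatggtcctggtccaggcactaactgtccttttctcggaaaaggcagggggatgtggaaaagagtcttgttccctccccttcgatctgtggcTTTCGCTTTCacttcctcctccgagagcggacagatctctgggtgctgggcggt
PSMB9 (chr6:32853942-32854241, plus strand): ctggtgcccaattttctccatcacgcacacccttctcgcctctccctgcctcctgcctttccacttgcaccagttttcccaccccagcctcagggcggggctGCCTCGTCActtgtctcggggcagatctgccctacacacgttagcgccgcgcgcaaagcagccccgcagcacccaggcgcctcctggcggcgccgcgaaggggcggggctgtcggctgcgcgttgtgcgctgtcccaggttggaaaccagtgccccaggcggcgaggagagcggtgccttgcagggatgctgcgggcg
PSMB10 (chr16:67936801-67937100, minus strand): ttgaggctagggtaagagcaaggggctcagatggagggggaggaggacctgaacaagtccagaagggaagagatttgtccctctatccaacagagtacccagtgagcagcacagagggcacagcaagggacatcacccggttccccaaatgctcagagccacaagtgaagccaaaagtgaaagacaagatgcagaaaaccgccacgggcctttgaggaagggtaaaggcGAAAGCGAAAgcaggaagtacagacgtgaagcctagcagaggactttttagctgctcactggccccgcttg
PSME1 (chr14:24135944-24136243, plus strand): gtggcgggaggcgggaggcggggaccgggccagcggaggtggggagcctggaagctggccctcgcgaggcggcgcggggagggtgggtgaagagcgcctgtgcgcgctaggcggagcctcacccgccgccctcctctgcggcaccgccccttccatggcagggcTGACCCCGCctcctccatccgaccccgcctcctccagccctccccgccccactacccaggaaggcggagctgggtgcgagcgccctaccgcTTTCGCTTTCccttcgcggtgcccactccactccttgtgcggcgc
PSME2 (chr14:24146561-24146860, minus strand): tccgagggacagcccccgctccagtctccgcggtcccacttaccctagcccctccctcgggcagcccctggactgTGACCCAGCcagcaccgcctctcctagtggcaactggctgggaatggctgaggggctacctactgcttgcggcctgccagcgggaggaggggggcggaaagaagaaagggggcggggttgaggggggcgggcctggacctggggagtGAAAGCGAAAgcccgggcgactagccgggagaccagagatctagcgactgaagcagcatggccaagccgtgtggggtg
PSMD3 (chr17:39980557-39980856, plus strand): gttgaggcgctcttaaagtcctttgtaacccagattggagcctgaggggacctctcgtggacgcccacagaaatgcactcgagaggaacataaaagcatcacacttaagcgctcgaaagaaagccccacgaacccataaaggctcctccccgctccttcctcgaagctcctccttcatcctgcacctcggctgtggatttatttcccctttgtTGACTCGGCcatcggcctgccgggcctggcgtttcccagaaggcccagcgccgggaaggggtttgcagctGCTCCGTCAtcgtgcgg
PSMG1 (chr21:39183402-39183701, minus strand): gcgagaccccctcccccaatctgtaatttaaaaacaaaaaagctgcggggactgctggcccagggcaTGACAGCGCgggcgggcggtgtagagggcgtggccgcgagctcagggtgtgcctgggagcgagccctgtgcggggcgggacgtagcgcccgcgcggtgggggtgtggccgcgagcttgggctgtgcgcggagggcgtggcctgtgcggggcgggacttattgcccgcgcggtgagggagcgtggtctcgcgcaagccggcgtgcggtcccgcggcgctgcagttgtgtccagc

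TGACNNNGC stood in 4687 of all 35116 windows (13.35%) and in 15 of the 51 windows of members, at 15 genes. It was present at 5 of the 18 genes with a window that rose in PBS cells, PSMD3 with 2 matches among them, and at 4 of the 9 that fell, which were PSMD5, PSMD12, PSME4 and PSMG1. The letters TGACTCAGC, which are one form of TGACNNNGC, stood in 197 of all windows (0.561%) and in none of the members. TGACGTCA, the cyclic AMP response element, was in 649 of all windows (1.85%) and in no member. CCAAT was in 12155 of all windows (34.6%) and in 20 of the 51 of members. These matches describe the letters in the window and nothing more.

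Of 21 proteasome-associated factors in PBS cells, 7 rose, 5 fell and 9 were not called, where 24.2% of all genes rose and 26.9% fell. ZFAND2A, a stress-induced protein that binds the proteasome, rose most, from 215 ± 3.49 to 661 ± 27.1 normalized counts (mean ± SD, n = 3; 3.06-fold). UCHL5, a deubiquitinase of the regulatory particle, fell most, from 1081 ± 33.6 to 585 ± 117 (log2 difference -0.90 ± 0.13 (SE), adjusted p = 1.68e-05). POMP, the maturation factor that brings beta subunits into the ring, fell from 2569 ± 99.5 to 2004 ± 346 (log2 difference -0.37 ± 0.13 (SE), adjusted p = 0.0219). The call of POMP was lost without the first or second PBS library or the first PBS library with tBHP (highest adjusted p 0.155) and under edgeR (0.0511), and its log2 difference was 0.17 with the GC and length trend removed.

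Of 8 genes for the transcriptional control of the proteasome, 5 rose and 1 fell in PBS cells, against the same 24.2% and 26.9% of all genes. NFE2L1 went from 7585 ± 77.1 to 10449 ± 756 in PBS cells (log2 difference 0.46 ± 0.074 (SE), adjusted p = 5.99e-05), and MAFG, a small Maf protein that dimerises with NFE2L1 and NFE2L2, from 1123 ± 13.1 to 3093 ± 291 (2.75-fold). NGLY1, which removes sugars from NFE2L1 and so activates it, fell from 491 ± 38.6 to 335 ± 11.2 (log2 difference -0.55 ± 0.10 (SE), adjusted p = 1.38e-04), and its log2 difference was -0.028 with the GC and length trend removed. Of 13 tested genes for antigen presentation and interferon control, 5 rose and 4 fell, again beside 24.2% and 26.9% of all genes. IRF9, a transcription factor of the interferon response, rose from 30.3 ± 2.26 to 63.3 ± 3.3 (log2 difference 1.04 ± 0.24 (SE), adjusted p = 0.0016). TAP1, the peptide transporter gene that shares a promoter region with PSMB9, went from 130.5 ± 7.55 to 133 ± 24.2 and was not called (log2 difference 0.01 ± 0.13 (SE), adjusted p = 0.972).

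Between the pre-incubations, no member passed the threshold in any of 6 comparisons. Without tBHP, 0 of 45 members were called between cNSF-HA and fNSF-HA, cNSF-HA and PBS, or fNSF-HA and PBS, where 0% of all genes were called in each, and 0 members had an unadjusted p below 0.05, which 1.51%, 0.921% and 0.796% of all genes had. Their log2 differences ran from -0.24 to 0.24. PSMD12 had the smallest p for cNSF-HA against fNSF-HA (log2 difference -0.16 ± 0.09 (SE), adjusted p = 1.00) and for cNSF-HA against PBS (log2 difference -0.12 ± 0.09 (SE), adjusted p = 1.00), with all cNSF-HA libraries at 2166, 2285 and 2286 below those of fNSF-HA at 2428, 2531 and 2553. The other members with the smallest p were PSMG2 (log2 difference -0.13 ± 0.09 (SE), adjusted p = 1.00), PSMC6 (log2 difference -0.10 ± 0.09 (SE), adjusted p = 1.00), and, for fNSF-HA against PBS, PSMA6 (log2 difference 0.24 ± 0.14 (SE), adjusted p = 1.00) and PSMD9 (log2 difference -0.21 ± 0.14 (SE), adjusted p = 1.00). edgeR and DESeq2 also called 0 members in these 3 comparisons. In a fit of only the groups compared, PSMD12 was called between cNSF-HA and fNSF-HA (limma, adjusted p = 0.00497), where 7.16% of all genes were. The main fit shares 1 estimate of the spread over all groups. The median SD of all genes was 0.063 to 0.070 in the groups without tBHP and 0.153 to 0.221 with it. The 0 calls of the main fit without tBHP therefore do not show that the pre-incubations were alike.

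With tBHP, 0 members were called between cNSF-HA and fNSF-HA (0% of all genes), between cNSF-HA and PBS (0%) and between fNSF-HA and PBS (0.139%). An unadjusted p below 0.05 was found for 9, 8 and 11 of the 45 members, where 32.2%, 8.64% and 22.7% of all genes had one. The members' median log2 difference was 0.066 for cNSF-HA minus fNSF-HA, 0.13 for cNSF-HA minus PBS and 0.055 for fNSF-HA minus PBS. These medians depended on single libraries: leaving out 1 gave -0.025 to 0.12, 0.049 to 0.19 and 0.024 to 0.086. The lowest came without the third cNSF-HA library with tBHP in both comparisons of cNSF-HA and without the third fNSF-HA library with tBHP in the last. The highest came without the first cNSF-HA library with tBHP, again in both, and without the second fNSF-HA library with tBHP. edgeR called 0 members in each, and DESeq2 called 1, 0 and 0, the 1 being PSMD5 (adjusted p = 0.0464), where DESeq2 called 7.37% of the genes it tested. PSMD5 had the smallest p for cNSF-HA against fNSF-HA, at 1146, 1165 and 1071 and 1414, 1595 and 1164 normalized counts (log2 difference -0.29 ± 0.10 (SE), adjusted p = 0.0981). The lowest fNSF-HA library lay inside the cNSF-HA range. PSMD9 followed (log2 difference 0.41 ± 0.14 (SE), adjusted p = 0.0981). For cNSF-HA against PBS the smallest p belonged to PSMG1 (log2 difference 0.27 ± 0.08 (SE), adjusted p = 0.497), whose 3 cNSF-HA libraries were above the 3 PBS ones, and to PSMB1 (log2 difference 0.24 ± 0.08 (SE), adjusted p = 0.537). For fNSF-HA against PBS they were PSMA4 (log2 difference 0.32 ± 0.10 (SE), adjusted p = 0.125) and PSMA3 (log2 difference 0.25 ± 0.08 (SE), adjusted p = 0.126), which differed without overlap. PSMA3 was at -0.050 with the GC and length trend removed.

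The count of 0 with tBHP stayed at 0 for cNSF-HA against PBS whichever library was left out, while the other comparisons with tBHP changed. Without the third fNSF-HA library with tBHP, 13 members were called between cNSF-HA and fNSF-HA, 10 higher with cNSF-HA and 3 lower, where 40.8% of all genes were called. The 10 were PSMA7, PSMB4, PSMB6, PSMB10, PSMC3, PSMC4, PSMD3, PSMD8, PSMD9 and PSMG3, and the 3 were PSMD5, PSMD12 and PSME4. Between fNSF-HA and PBS, 10 members were then called, where 29.4% of all genes were. Of these, PSMD9 was lower with fNSF-HA, and PSMA2, PSMA3, PSMA4, PSMC6, PSMD5, PSMD12, PSMD14, PSME4 and PSMG1 were higher. These genes are named because they were called, and the shares of members, 28.9% and 22.2%, were below those of all genes. Without the second PBS library with tBHP, 1 member, PSMA6, was called between fNSF-HA and PBS, where 1.25% of all genes were.

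**Figure D5:**
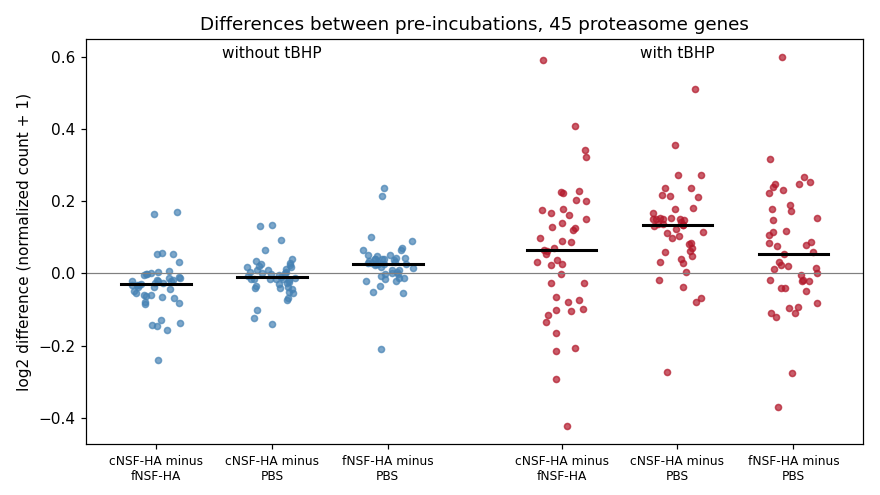
log2 differences between pre-incubations of the 45 tested members, without tBHP (left) and with tBHP (right). Points are genes and bars their median. Without tBHP the points lie between -0.24 and 0.24, and with tBHP they spread further, from -0.42 to 0.60.

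For no member did a difference of tBHP responses between pre-incubations pass the threshold. The difference of responses was called for 0 of 45 members, with the share of all genes in parentheses, between cNSF-HA and PBS (0%), between fNSF-HA and PBS (0%) and between cNSF-HA and fNSF-HA (0%). An unadjusted p below 0.05 was found for 1 of 45 members in each, where 4.06%, 6.88% and 3.89% of all genes had one, and edgeR and DESeq2 called 0 members. For cNSF-HA minus PBS, PSMG1 had the smallest p, with a log2 difference of responses of 0.34 ± 0.12 (SE), adjusted p = 0.999. The next member there was PSMD6 (0.21 ± 0.10 (SE), adjusted p = 0.999). PSMA6 had the smallest p for fNSF-HA minus PBS (-0.61 ± 0.20 (SE), adjusted p = 0.667), followed by PSMC6 (0.25 ± 0.12 (SE), adjusted p = 0.667). For cNSF-HA minus fNSF-HA they were PSMC4 (0.24 ± 0.10 (SE), adjusted p = 0.71) and PSMC3 (0.26 ± 0.12 (SE), adjusted p = 0.71).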

How the data were processed

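RNA-seq libraries of 18 IMR90 cultures were made with a kit that does not keep the strand and sequenced as single-end reads. The submitters' processing notes name Trimmomatic 0.32, STAR 2.5.2b, featureCounts of Subread 1.5.0-p3 and DESeq2, with build GRCh38.p7, and the annotation release is not given in the sources used here. The deposited signal holds normalized counts, in which the authors divided each gene's count by a size factor from DESeq2. A deposited p-value and q-value per gene and their rank, for a comparison the header does not name, were not used.

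Dividing by each library's step returned whole reads (100% of values within 0.01 reads). The main test was limma 3.58.1 in R 4.3.3 on log2(value + 1), with 1 coefficient per group over all 18 libraries and a trend of the variance with the mean, two-sided, on genes with a mean of at least 10. Fold changes are on that scale and understate low genes. p-values were adjusted by Benjamini-Hochberg over the genes tested, with a threshold of 0.05, and measure the spread between these replicates. edgeR 4.0.16 (quasi-likelihood) and DESeq2 1.42.0 on the recovered reads were alternatives, and edgeR called 7281 genes in the PBS response. The other alternatives were the pseudocount, the filter, the scaling, the groups fitted, a replicate block, removal of the trend with GC content and length, and leaving out each library. On simulated counts, limma, edgeR and DESeq2 were tested for the PBS response only, with the same spread in every group. The other steps were not tested on simulated data. Lengths, GC content and shared exons came from GENCODE release 29, and promoters from RefSeq.

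Named with values were the 5 inducible members and the 3 constitutive subunits they replace, the largest called rise and fall in PBS cells of each role and related list, the 2 members with the smallest p where a comparison called none, members below the filter, and POMP, NFE2L1 and TAP1. 1 gene that this rule names is not reported here. Other members were named after their values were seen. The members and lists were chosen with earlier results of these data known.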

Additional observations from a re-analysis of the deposited data

How the results depend on the processing

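The count of members called kept within 1.5 times its value in the 3 tBHP responses under every alternative run. It became 1 between cNSF-HA and fNSF-HA with tBHP under DESeq2 and 1 for the same pair without tBHP when only those groups were fitted. Leaving out each library gave 25 to 30 members for the PBS response, 29 to 33 with cNSF-HA and 23 to 31 with fNSF-HA, 0 to 13 for cNSF-HA against fNSF-HA with tBHP, 0 to 10 for fNSF-HA against PBS with tBHP, and 0 in the other comparisons. The difference between inducible and constitutive members ran from -0.31 to -0.12 with PBS, from -0.18 to -0.056 with cNSF-HA and from -0.37 to -0.15 with fNSF-HA. With the GC and length trend removed it was -0.51 with PBS and -0.43 with cNSF-HA. Among the 34 members with few shared bases, a choice made after seeing the data, 24, 26 and 23 were called. The labels do not say whether the same replicate number marks paired samples, and the numbers were not used as pairs. In no comparison were all 3 correlations of same-numbered deviations above 0.1, which cannot exclude pairing. With tBHP they were -0.023, 0.196 and 0.324 for cNSF-HA against fNSF-HA, and 0.136, 0.333 and -0.119 for fNSF-HA against PBS. With the replicate block 31, 32 and 30 members were called in the tBHP responses and 0 in the other comparisons.

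Of 1307 single-gene values under alternatives, 1216 kept their direction and side of the threshold, 57 lost their call, 19 gained one and 15 turned direction. With the GC and length trend removed, PSME1 was at -0.10, -0.075 and -0.068 in PBS, cNSF-HA and fNSF-HA cells, PSMD12 at 0.16, 0.33 and 0.16, PSMB5 at -0.058, POMP at 0.17 and TAP1 at -0.25 in PBS cells, PSMB10 at -0.20 in cNSF-HA cells, and PSMA3 at -0.050 for fNSF-HA against PBS with tBHP. TAP1 was at -0.04 without the third PBS library, -0.10 without the first and -0.05 without the second PBS library with tBHP, and PSMD12 in fNSF-HA cells ran from -0.17 to 0.0092 over the libraries left out, turning without the third library with tBHP. The cause of these turns was not tested. PSMB9, PSMB11 and PSMA8 were below the mean of 10 normalized counts that the filter asked for.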
